A study of Mus musculus with 4 samples.

Results

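Expression of 8 genes of cholesterol synthesis and its control by the transcription factor SREBP2 was examined in wild-type (WT) and *Zfp296* knockout (KO) embryonic stem cells (ESCs). The 8 genes were chosen by symbol, as *Hmgcs1*, *Idi1*, *Fdft1*, *Sqle*, *Lss*, *Cyp51*, *Insig1* and *Srebf2*. Of these, 7 were matched to rows of the count files, which hold 48526 gene identifiers, and all 7 were among the 12883 genes that passed the filter on low counts. *Hmgcs1*, which encodes the cytosolic HMG-CoA synthase, had no entry in the table that pairs identifiers with symbols, and its counts were not analysed here.

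The samples were 2 biological replicates of WT R1 ESCs and 2 of ZFP296 CRISPR KO clone 2 R1 ESCs (KO2), for which total RNA was depleted of ribosomal RNA and sequenced from strand-specific libraries. R1 is an established mouse ESC line, and KO2 is a single monoclonal line obtained from R1 with Cas9, a guide against the first exon of *Zfp296* and puromycin selection, so that an effect of the knockout cannot be told apart from a difference between clones. Per the study's methods, ESCs were kept on gelatine in medium with foetal bovine serum, LIF and the inhibitors PD0325901 and CHIR99021, which holds for both groups. ZFP296 is a zinc finger protein that binds the NuRD complex, a chromatin remodeller and histone deacetylase, and the comparison of KO2 to WT asks how loss of ZFP296 affects the transcriptome.

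Cholesterol is built from acetyl-CoA. The mevalonate arm makes isoprenoid units, farnesyl diphosphate is joined to squalene, and squalene is oxidised, closed to lanosterol and trimmed to cholesterol. When membranes of the endoplasmic reticulum are poor in sterol, SCAP escorts SREBP2 to the Golgi, where it is cleaved, and the released fragment enters the nucleus and switches on the genes of cholesterol synthesis and uptake. INSIG proteins hold SCAP back when sterol is plentiful, and *Insig1* is itself a target, so the transcripts of these genes are commonly read together as a gauge of the sterol state of a cell.

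The counts on genes ranged from 2829914 to 4334499 in WT and from 7437294 to 7470907 in KO2, so both KO2 libraries were the deeper ones. *Zfp296* itself was counted 31 times in each WT replicate, and 416 and 282 times in KO2, with 11.6 and 7.33 CPM (read counts scaled to the TMM-adjusted size of each library) compared to 52.8 and 37.7 CPM, so its transcript was higher in the libraries labelled KO2 (log2 fold change 2.31, 95% interval 1.72 to 2.91, adjusted p = 4.55e-05, edgeR). This value does not check the labels. The cause of the higher transcript in KO2, and an exchange of the labels, were not tested. The sign of each fold change below rests on the labels. KO2 below stands for the libraries labelled so. Counts of the Y-linked gene *Ddx3y* were 0 and 1 in WT but 1979 and 2197 in KO2. WT and KO2 libraries thus also differed in Y-linked RNA, although KO2 is described as a clone of R1 and WT as R1. With these counts, the WT cells sequenced cannot be taken to match the parent of KO2. The cause of this difference and its part in the results were not tested. Of 9 matched ESC markers, none was at 0, and their summed level was 6202 to 6472 CPM in WT and 6073 to 6246 CPM in KO2. Among them *Sox2*, a core pluripotency factor, fell from 873 and 806 CPM in WT to 483 and 489 CPM in KO2 (log2 fold change -0.79, adjusted p = 7.84e-05, edgeR), and no other ESC marker was called. The part of this difference in the results was not tested. The 8 fibroblast markers summed to 3.35 to 13.2 CPM in WT and 7.36 to 9.09 CPM in KO2, with *Postn*, *Dcn* and *Lum* at 0 in each library. The 9 matched markers of differentiated lineages summed to 48.1 to 63.8 CPM in WT and 64.4 to 67.1 CPM in KO2, with *T*, *Mesp1* and *Fgf5* at 0. Most of each sum came from *Otx2* alone, at 45.1 and 62.6 CPM in WT and 61.8 and 60.8 CPM in KO2. *Otx2* was not called (adjusted p = 0.662, edgeR).

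The promoters of 6 of the 8 genes were present in the RefSeq promoter table (GRCm38.p6), and they are shown because SREBP2 acts on its targets through short elements next to boxes for NF-Y and SP1. In the 250 bases before the transcription start, 3 motifs were searched on both strands, namely TCACNCCAC, a core of the sterol regulatory element with a free base, CCAAT, the box of NF-Y, and GGGCGG, the box of SP1. No match overlapped another. Capitals mark the matches, on either strand, in the promoters of *Hmgcs1*, *Insig1*, *Lss* and *Srebf2*, each written in the direction of transcription.
Hmgcs1: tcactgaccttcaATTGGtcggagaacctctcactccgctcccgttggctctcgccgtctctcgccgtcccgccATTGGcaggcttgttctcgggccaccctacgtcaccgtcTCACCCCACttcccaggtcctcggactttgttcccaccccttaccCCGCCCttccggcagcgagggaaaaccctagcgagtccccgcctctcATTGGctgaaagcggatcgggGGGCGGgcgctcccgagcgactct
Insig1: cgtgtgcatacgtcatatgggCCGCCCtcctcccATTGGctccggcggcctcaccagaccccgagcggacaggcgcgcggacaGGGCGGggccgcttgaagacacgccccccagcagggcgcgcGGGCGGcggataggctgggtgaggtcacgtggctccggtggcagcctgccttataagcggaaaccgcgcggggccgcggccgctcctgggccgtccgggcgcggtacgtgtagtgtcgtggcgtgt
Lss: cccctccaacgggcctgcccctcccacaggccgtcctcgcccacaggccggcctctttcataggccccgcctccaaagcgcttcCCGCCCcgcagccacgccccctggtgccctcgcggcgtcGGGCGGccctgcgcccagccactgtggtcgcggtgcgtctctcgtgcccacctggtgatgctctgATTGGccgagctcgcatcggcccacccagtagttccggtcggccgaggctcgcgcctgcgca
Srebf2: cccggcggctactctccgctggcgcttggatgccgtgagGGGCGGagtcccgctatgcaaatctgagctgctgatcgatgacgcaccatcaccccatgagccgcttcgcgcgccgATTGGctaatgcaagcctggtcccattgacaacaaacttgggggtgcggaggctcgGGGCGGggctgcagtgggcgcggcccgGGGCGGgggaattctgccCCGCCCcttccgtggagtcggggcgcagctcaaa
*Hmgcs1* lies on the plus strand and its window is chr13:119690101-119690350. The window of *Insig1* is chr5:28071162-28071411, that of *Lss* chr10:76531355-76531604 and that of *Srebf2* chr15:82147019-82147268, all on the plus strand of the same build. CCAAT was present in 6 of 6 promoters of the group, compared to 33.8% of the 32851 promoters in the table, and GGGCGG also in 6 of 6, compared to 32.7%. TCACNCCAC was found in *Hmgcs1* alone, 137 bases before the start, and in 1.05% of all promoters. Of the 13 other enzymes of the pathway with a promoter in the table, 12 had CCAAT, 11 had GGGCGG and none had TCACNCCAC. An enzyme was counted if any of its promoters had the motif, while the shares of all promoters count each promoter singly. A match is a description of the letters in the window, and its absence says nothing about binding.

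None of the 7 genes was called different between KO2 and WT. In the quasi-likelihood fit of edgeR, adjusted by Benjamini-Hochberg over all tested genes, 0 of 7 had an adjusted p under 0.05, compared to 5.64% of the 12883 tested genes, of which 2.61% were called higher and 3.04% lower in KO2. At an unadjusted p under 0.05 the number was also 0 of 7, compared to 19.4% of tested genes. DESeq2, with which the authors tested expression, called 0 of 7, with 0 at an unadjusted p under 0.05, and 4.01% of the genes it adjusted. The log2 fold changes ranged from -0.15 to 0.24 with a median of 0.08 (-0.01 without KO2 replicate 1 and 0.17 without KO2 replicate 2). Of these, 4 were positive and 3 negative. Their size had a median of 0.14, compared to 0.27 over all tested genes, whose median log2 fold change was 0.01. The tested genes were not matched in level to the 7 genes, which had 157 to 1504 counts per library. The sizes are therefore not compared like for like. Each 95% interval covered no change, and the intervals of the 7 genes together spanned 0.751-fold to 1.48-fold, each one taken for its gene alone. A missed threshold does not show that levels were equal, and larger differences than these bounds are what the intervals leave out. In bulk samples fewer cells expressing a gene and less RNA per cell cannot be told apart.

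**Figure D1:**
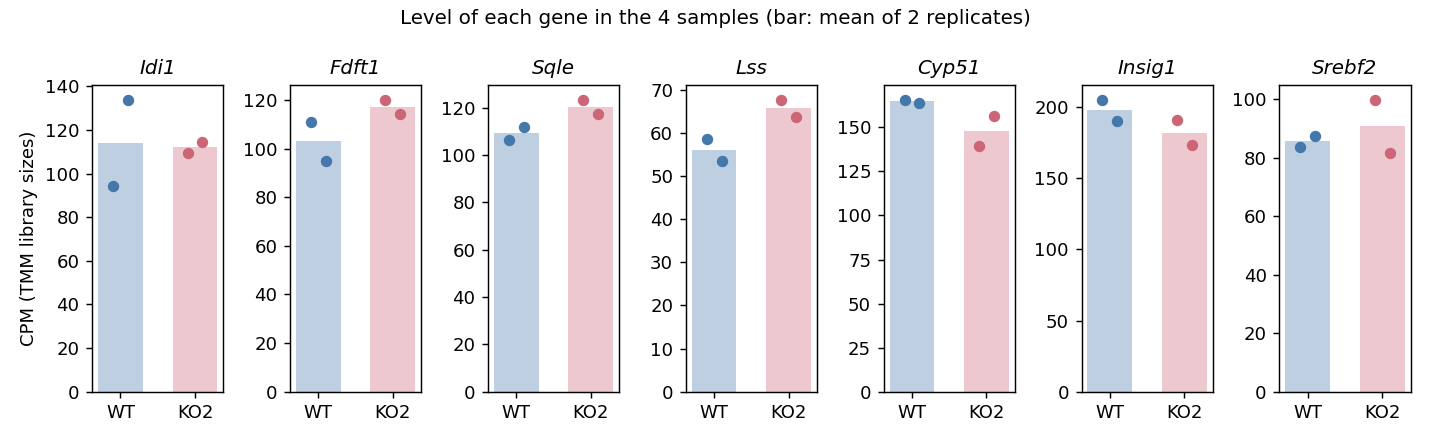
CPM (TMM library sizes) of the 7 analysed genes in WT and KO2, with 1 point per replicate and bars for the mean of 2 replicates, on axes that start at 0. *Fdft1*, *Sqle* and *Lss* lie higher in both KO2 replicates, *Cyp51* lower, and the groups overlap in *Idi1*, *Insig1* and *Srebf2*, and none of the 7 passed the test.

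*Idi1* (ENSMUSG00000058258, chromosome 13, 8884852 to 8891641, plus strand, mm9) encodes isopentenyl diphosphate isomerase, which interconverts the isoprenoid building blocks. Its level was 94.3 and 134 CPM in WT and 110 and 114 CPM in KO2, from 253, 567, 865 and 856 counts. The KO2 replicates lay between the WT replicates, which were the widest apart of any member. The log2 fold change was -0.04 (standard error 0.15, 95% interval -0.36 to 0.28, adjusted p = 0.928, edgeR). Without WT replicate 2 it was 0.25 and without WT replicate 1 it was -0.26, so its direction rested on the WT library chosen, and scaling to the ERCC spike-ins also turned it, to 0.03.

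*Fdft1* (ENSMUSG00000021273, chromosome 14, 63763990 to 63796630, minus strand) encodes squalene synthase, the committed step towards sterols. It had 111 and 94.99 CPM in WT and 120 and 114 CPM in KO2. Both KO2 replicates were above both WT replicates, by less than the WT replicates differed. Its log2 fold change was 0.19 (standard error 0.14, 95% interval -0.09 to 0.48, adjusted p = 0.482, edgeR). Without WT replicate 2 the value fell to 0.08.

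*Sqle* (ENSMUSG00000022351, chromosome 15, 59146632 to 59162747, plus strand) encodes squalene epoxidase, an oxygen-dependent enzyme that acts on squalene. Its level was 106 and 112 CPM in WT and 123 and 117 CPM in KO2, so the groups did not overlap. The log2 fold change of 0.14 (standard error 0.13, 95% interval -0.13 to 0.41) had an adjusted p of 0.620 with edgeR.

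*Lss* (ENSMUSG00000033105, chromosome 10, 75994333 to 76019883, plus strand) encodes lanosterol synthase, which closes the sterol rings. With 58.5 and 53.4 CPM in WT and 67.7 and 63.8 CPM in KO2, it had the highest fold change of the group, 1.18-fold, and the groups did not overlap. On the log2 scale this was 0.24 (standard error 0.16, 95% interval -0.09 to 0.57, adjusted p = 0.450, edgeR). It also had the fewest counts of the 7 genes, from 157 in a WT replicate to 534 in a KO2 replicate.

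*Cyp51* (ENSMUSG00000001467, chromosome 5, 4081145 to 4104746, minus strand) encodes lanosterol 14-alpha-demethylase, which begins the trimming of lanosterol. Its level was 166 and 164 CPM in WT and 140 and 157 CPM in KO2. Both KO2 replicates were below both WT replicates, which lay close together. The log2 fold change was -0.15 (standard error 0.12, 95% interval -0.41 to 0.10, adjusted p = 0.543, edgeR), and it was closer to 0 without KO2 replicate 1, at -0.07.

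*Insig1* (ENSMUSG00000045294, chromosome 5, 28397952 to 28405201, plus strand) encodes the endoplasmic reticulum protein that retains SCAP, and its transcript is a sensitive target of SREBP2. It had 205 and 191 CPM in WT and 191 and 173 CPM in KO2, from 551 to 1504 counts, the highest of the group. The groups overlapped by a narrow margin. Its log2 fold change was -0.12 (standard error 0.12, 95% interval -0.37 to 0.13, adjusted p = 0.649, edgeR).

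*Srebf2* (ENSMUSG00000022463, chromosome 15, 81977696 to 82035806, plus strand) encodes SREBP2 itself, holds *Mir33* within its span on the same strand, and is among the genes that SREBP2 can activate. Its level was 83.9 and 87.4 CPM in WT and 99.9 and 81.8 CPM in KO2. The WT replicates lay between the KO2 replicates. The log2 fold change was 0.08 (standard error 0.15, 95% interval -0.22 to 0.39, adjusted p = 0.824, edgeR), and without KO2 replicate 1 it was -0.06.

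The groups thus did not overlap in 4 of the 7 genes, with 3 higher and 1 lower in KO2. Among all tested genes 48.8% did not overlap, with 25.4% higher and 23.4% lower in KO2, so a share of this size is near the background. The difference between the group means exceeded the difference within both pairs of replicates in 2 of the 7 genes, *Sqle* and *Lss* (28.6%), compared to 35.9% of the 12690 tested genes with counts in every library. The direction was therefore mixed along the pathway, with *Fdft1*, *Sqle* and *Lss*, which act in succession from farnesyl diphosphate to lanosterol, at 0.14 to 0.24 and the next enzyme, *Cyp51*, at -0.15 on the log2 scale, and none of these values passed the test.

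Levels were compared between genes as CPM per kilobase of annotated exon. *Insig1* was the most abundant, at 65.5 to 77.6 CPM per kilobase over the 4 samples, and it did not overlap the next gene. *Idi1* (32.9 to 46.8), *Fdft1* (33.2 to 42.0) and *Cyp51* (32.6 to 38.7) followed and overlapped each other. *Sqle* (19.2 to 22.3) and *Srebf2* (16.4 to 20.03) overlapped as well, and *Lss* was lowest, at 4.95 to 6.28 CPM per kilobase. This order depends on the length taken, since *Lss* has 10787 bases and *Sqle* 5546 bases of exon over all annotated transcripts. With the length of the longest coding transcript, 4667 and 2758 bases, the mean level was 13.0 for *Lss* and 41.6 CPM per kilobase for *Sqle*, which then stood beside *Idi1*, *Fdft1* and *Cyp51*. Reads shared with near-identical places may be lost as well: 1 other place in the genome matched *Fdft1* (1618 bases, 97.4% identity), 1 matched *Insig1* (2040 bases, 97.9%) and 2 matched *Idi1* (at most 2494 bases, 99.3%), so the levels of these genes are uncertain. *Sqle*, *Lss*, *Cyp51* and *Srebf2* had no such match of at least 150 bases and 90% identity. *Fdft1* overlaps *Ctsb* and *Lss* overlaps a long non-coding RNA gene, each on the opposite strand, and since the strand setting of the counting is not given in the sources used here, reads of these partners cannot be told apart with certainty.

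**Figure D2:**
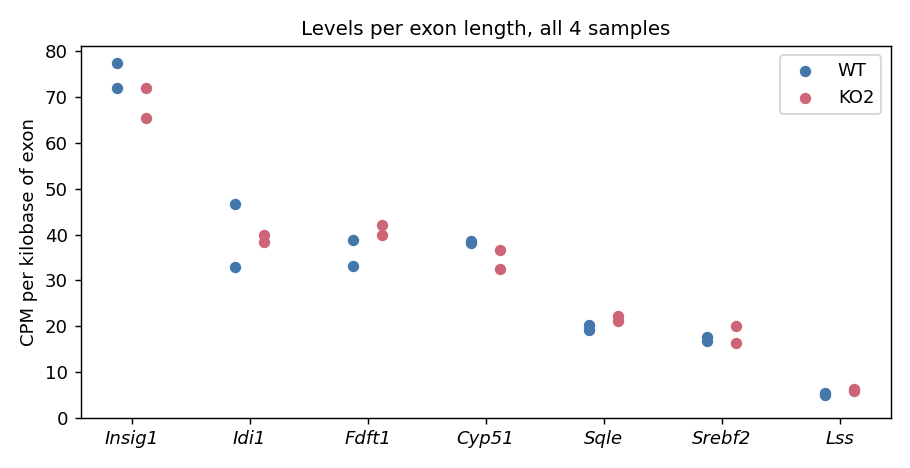
CPM per kilobase of annotated exon for the 7 genes, ordered by their mean over all 4 samples, with 1 point per replicate in WT and KO2 and an axis that starts at 0. *Insig1* stands above the others at 65.5 to 77.6, and within each gene WT and KO2 lie close together.

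The other enzymes of the pathway were not called either. Of the 16 further enzymes from *Acat2* to *Dhcr7*, all were tested and 0 were called in either direction by edgeR, with 2 at an unadjusted p under 0.05 (*Fdps* and, named after its values were seen, *Ggps1*), and DESeq2 called none. Their log2 fold changes had a median of -0.01, with 8 positive and 8 negative, and ranged from -0.44 to 0.58. In 5 of them both KO2 replicates were above both WT replicates and in 3 below. Among all tested genes 5.64% were called, 19.4% had an unadjusted p under 0.05, and the groups did not overlap in 48.8%. *Fdps*, which makes farnesyl diphosphate, had the largest value, at 23.9 and 25.99 CPM in WT and 36.4 and 38.8 CPM in KO2, which is 0.58 on the log2 scale (95% interval 0.15 to 1.02, unadjusted p = 0.0117 and adjusted p = 0.119, edgeR), and 2 other places in the genome match its transcript. Mevalonate kinase, *Mvk*, had 20.9 and 14.9 CPM in WT and 24.1 and 27.0 CPM in KO2, a log2 fold change of 0.55 (adjusted p = 0.259, edgeR), which was 0.29 without WT replicate 2. Later in the pathway, the sterol desaturase gene *Sc5d* was at 0.36 (adjusted p = 0.361, edgeR) and the sterol reductase gene *Tm7sf2* at -0.30 (adjusted p = 0.722, edgeR), the latter from 34 to 99 counts.

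**Figure D3:**
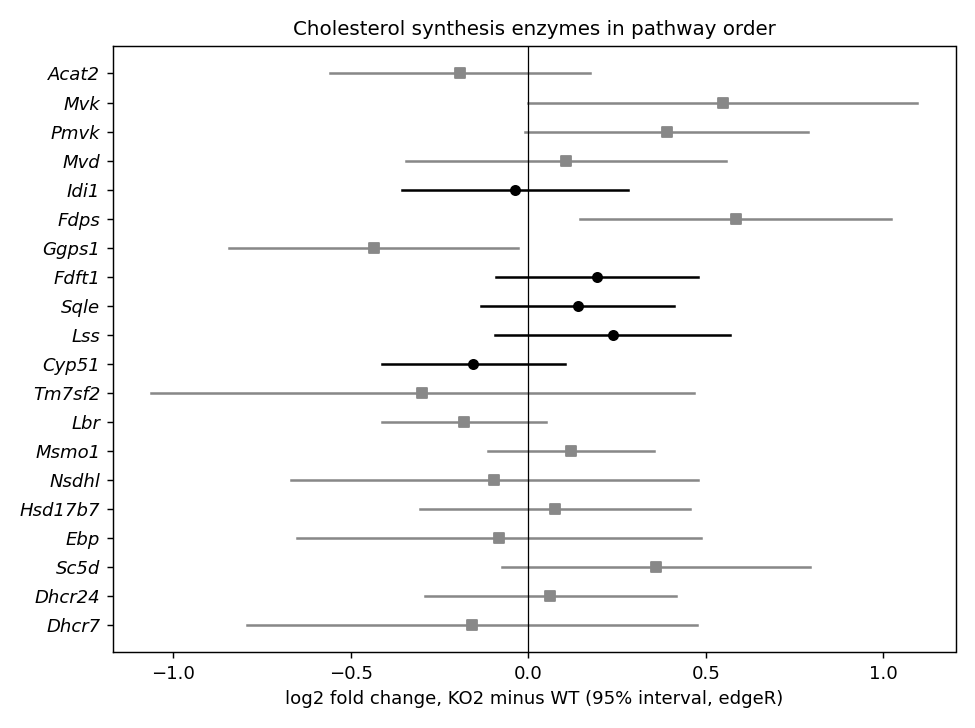
Log2 fold change of KO2 against WT with 95% intervals from edgeR for the enzymes of cholesterol synthesis whose values are reported here, in pathway order from top to bottom, with black circles for the analysed members and grey squares for the other enzymes. The points scatter on both sides of 0, from -0.44 to 0.58, and none was called.

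Among the genes that control SREBP and the uptake and transport of cholesterol, 13 besides *Insig1* and *Srebf2* were tested, of which 0 were called higher and 1 lower in KO2, compared to 2.61% and 3.04% of all tested genes. The 1 gene was *Npc2*, whose product takes part in the export of cholesterol from the lysosome. It fell from 340 and 281 CPM in WT to 202 and 244 CPM in KO2, a change of -0.47 on the log2 scale (95% interval -0.74 to -0.21, adjusted p = 0.0337, edgeR). Without WT replicate 1 the adjusted p was 0.271 at a log2 fold change of -0.33, and without KO2 replicate 1 it was 0.257 at -0.34 (edgeR), so the call rested on these libraries. A stretch of 181 bases elsewhere matches *Npc2* at 90.6% identity. The call was also lost with scaling to the ERCC spike-ins (log2 fold change -0.35, adjusted p = 0.985, edgeR) and without the filter on low counts (-0.44, adjusted p = 0.340, edgeR). *Mbtps2*, the gene of the site-2 protease that completes the release of SREBP, was named after its values were seen, since it had an unadjusted p under 0.05. It had 52.2 and 55.5 CPM in WT and 41.7 and 33.8 CPM in KO2, below WT in both replicates, at -0.51 on the log2 scale (95% interval -0.89 to -0.13, adjusted p = 0.113, edgeR). *Mylip*, the gene of an E3 ubiquitin ligase, had 4.10 and 4.02 CPM in WT and 11.9 and 7.22 CPM in KO2. These came from 11 and 17 counts in WT and 94 and 54 in the deeper KO2 libraries. Its log2 fold change was 1.24 (95% interval 0.22 to 2.26, unadjusted p = 0.0201 and adjusted p = 0.161, edgeR). The median log2 fold change of the 13 genes was 0.04.

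The fatty acid genes that SREBP1 activates were examined for comparison. Of 11 tested genes, 0 were called by edgeR, compared to 5.64% of all tested genes. At an unadjusted p under 0.05 there were 2 (*Me1* and, named after its values were seen, *Elovl6*), compared to 19.4% of all tested genes. The median log2 fold change of the 11 genes was 0.05. *Me1*, the gene of malic enzyme, which supplies NADPH, was close to the threshold, at 88.0 and 103 CPM in WT and 128 and 134 CPM in KO2 (log2 fold change 0.45, standard error 0.14, adjusted p = 0.0576, edgeR). DESeq2 gave it an adjusted p of 0.129, and with each replicate left out the adjusted p was 0.0621 to 0.248 (edgeR). Near-identical copies match *Me1* at 2 other places (at most 1808 bases, 98.6% identity) and *Scd2* at 5 (at most 236 bases, 92.8%), so their levels are uncertain. The stearoyl-CoA desaturase gene *Scd2* had 527 and 738 CPM in WT and 603 and 430 CPM in KO2 (log2 fold change -0.30, adjusted p = 0.294, edgeR), and its value rested on single libraries. Its log2 fold change was -0.56 without KO2 replicate 1 (adjusted p = 0.00306, edgeR) and -0.52 without WT replicate 1 (adjusted p = 0.172), but -0.08 without KO2 replicate 2 (adjusted p = 0.836) and -0.03 without WT replicate 2 (adjusted p = 0.947).

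Of 10 genes of sterol efflux and the sterol-sensing LXR receptors, 8 were tested, of which 0 were called higher and 1 lower in KO2, with the same 2.61% and 3.04% among all tested genes. *Ch25h* and *Cyp46a1* did not pass the filter on low counts. The gene called was *Apoe*, which encodes the lipoprotein component that accepts cholesterol and is an LXR target. It lies on chromosome 7 at 20281458 to 20284515, near the targeted gene *Zfp296* at 20162636 to 20166005 (mm9). Whether this position bears on the value of *Apoe* was not tested. *Apoe* had 241 and 221 CPM in WT and 142 and 121 CPM in KO2, so the groups were well apart. It fell by 0.81 on the log2 scale (standard error 0.12, 95% interval -1.07 to -0.55, adjusted p = 0.000536, edgeR), or to 0.571-fold, and DESeq2 gave an adjusted p of 3.35e-06. Leaving out each replicate in turn gave log2 fold changes from -0.92 to -0.70, each with an adjusted p under the threshold. The call was lost with scaling to the ERCC spike-ins (log2 fold change -0.72, adjusted p = 0.46, edgeR) and without the filter on low counts (-0.78, adjusted p = 0.0951, edgeR), while the size of the change stayed close to that of the value above. The efflux pump gene *Abcg1* had 19.4 and 12.1 CPM in WT and 8.62 and 8.96 CPM in KO2 (log2 fold change -0.79, unadjusted p = 0.0374 and adjusted p = 0.224, edgeR), and its log2 fold change was -0.45 without WT replicate 1. *Cyp27a1*, which encodes a sterol hydroxylase, had 9 to 14 counts per library (log2 fold change -1.09, adjusted p = 0.428, edgeR), and -0.44 without WT replicate 1 and -1.72 without WT replicate 2. The median of the 8 genes was -0.24, with 2 positive and 6 negative, and it was -0.39 without WT replicate 2.

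**Figure D4:**
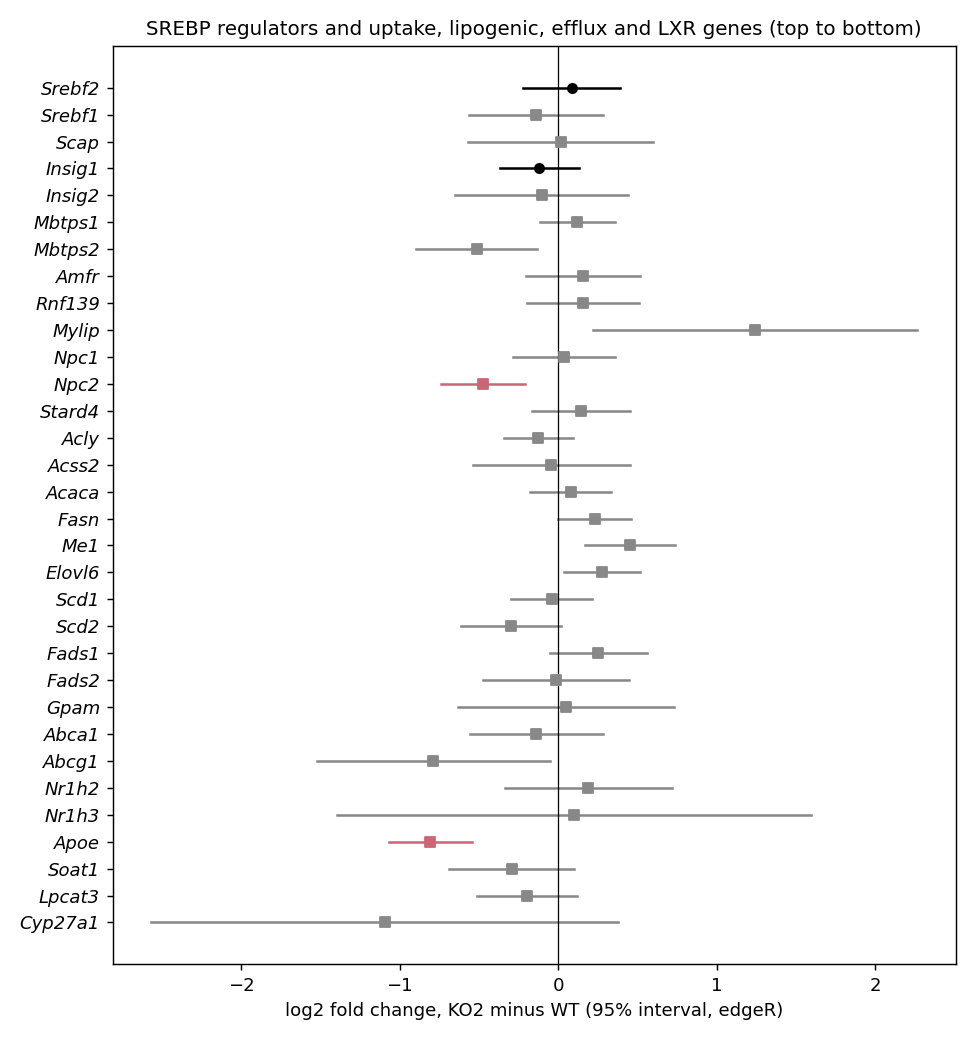
Log2 fold change of KO2 against WT with 95% intervals from edgeR for the regulators of SREBP and cholesterol uptake whose values are reported here (*Srebf2* to *Stard4*), the lipogenic genes (*Acly* to *Gpam*) and the efflux and LXR genes (*Abca1* to *Cyp27a1*). Black circles are *Srebf2* and *Insig1*, red squares are the called genes *Npc2* (-0.47) and *Apoe* (-0.81), and grey squares are genes that were not called.

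The tested genes outside the lists whose level moved most like the median profile of the 7 genes over the 4 samples were *Copb2*, *Ormdl3*, *Iqgap1*, *Atp5b* and *Rexo2*. Likeness was the root mean square distance of log2 CPM, centred on each gene's mean, from the median profile of the 7 genes, and these 5 genes lay 0.02 away. The members themselves lay 0.03 to 0.18 away, farther than these 5 genes, since their fold changes had both signs. Within 0.18, the distance of the farthest member, lay 4214 of the 12815 tested genes outside the lists. The flat median profile was thus shared with many genes, and likeness to it is not likeness to each member.

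**Figure D5:**
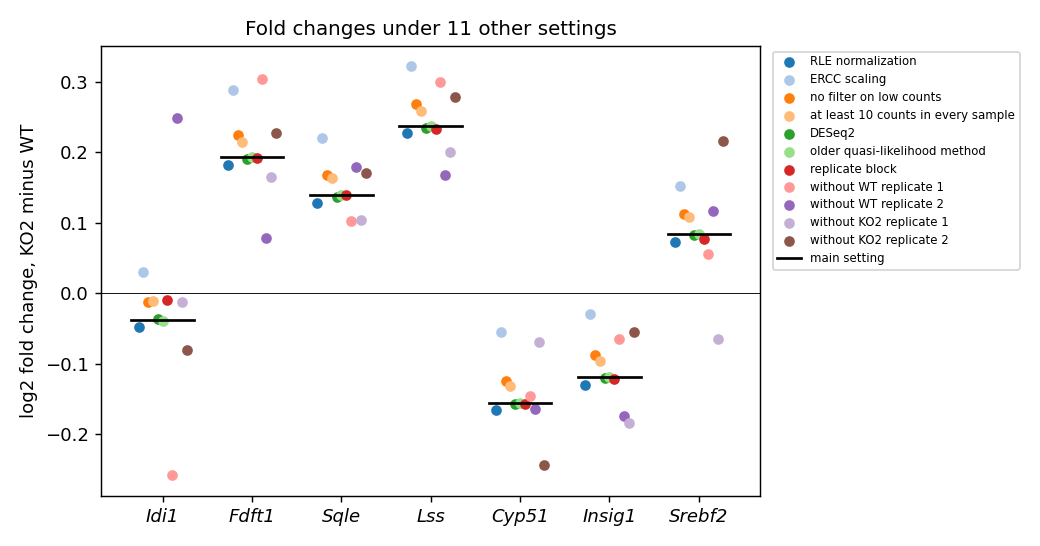
Log2 fold change of KO2 against WT for the 7 genes under 11 alternative settings (coloured points) and the main setting (black line). The values stay between -0.26 and 0.32, and the sign changes for *Idi1* with ERCC scaling and without WT replicate 2 and for *Srebf2* without KO2 replicate 1.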

How the data were processed

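RNA was isolated in duplicate from WT and KO2 ESCs. Per the labels and the study's methods, the authors mapped reads to mm9 with HISAT2 and deposited raw HTSeq counts per Ensembl gene, without normalization. Versions, annotation and counting options are not given in the sources used here. HTSeq's summary rows, which name no gene, held 52.88% to 58.77% of the rows' total and were left out, as were 92 ERCC rows. Symbols (32782 of 48526 identifiers), coordinates and exon lengths came from GENCODE vM1 (NCBIM37, the same build as mm9).

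Genes were kept with filterByExpr (minimum count 10, minimum total 15), scaled by TMM and tested with glmQLFit (legacy=FALSE) and glmQLFTest in edgeR 4.0.16 (R 4.3.3), with group as the only term and Benjamini-Hochberg adjustment at 0.05. A count of 3 is 1.12 and 0.709 CPM in WT and 0.380 and 0.401 CPM in KO2. Whether replicates came from separate cultures is not stated beyond the label of biological replicate, so p-values cover the spread between these samples. Replicates of a group differed by more than sampling noise (mean chi-square per gene 5.92 in WT and 21.3 in KO2). This measure grows with the counts and the KO2 libraries were deeper, so the values do not compare the spread of the groups. Transcripts were matched to the genome with minimap2.

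The alternatives were RLE, ERCC scaling, no filter, a filter of at least 10 counts per sample, DESeq2 1.42.0, the older quasi-likelihood method, the replicate block and leaving out each replicate. The length of the longest coding transcript was added after seeing the data. The fits were also run on simulated counts, with changes larger than those seen in the members and a common spread for all genes. That run does not bear on changes as small as those of the members. From wider lists, the genes named are those called and the 2 with the largest change among those not called, and *Mbtps2*, *Ggps1* and *Elovl6* were named after their values were seen. Some listed genes count in their list's totals, but their own values are not reported here. The members and lists were chosen with earlier results of these data known.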

Additional observations from a re-analysis of the deposited data

How the results depend on the processing

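None of the 7 genes was called under any of the 11 alternatives (lowest adjusted p 0.313, edgeR), and 74 of their 77 values kept their direction. The exceptions were *Idi1*, at 0.0297 with ERCC scaling and -0.26 to 0.25 when each replicate was left out in turn, and *Srebf2*, at -0.0646 to 0.22 in the latter. The replicate block changed no call of these genes and called 950 of all tested genes compared to 727 without it. In the labels, replicates of the 2 groups share only a number. Deviations of same-numbered samples correlated at -0.0066 across genes, which cannot show whether these samples shared a batch. Calls over all genes moved to 163 with ERCC scaling (90 higher and 73 lower), to 61 without a filter (29 higher and 32 lower) and to 454 with DESeq2 (189 higher), and ranged from 270 to 691 when a replicate was left out (122 to 341 higher and 148 to 350 lower). Among regulators, the count of 1 lower became 0 with ERCC scaling and without a filter and was 0 to 1 with a replicate left out. Among efflux genes the count of 1 lower also became 0 with ERCC scaling and without a filter. Among lipogenic genes 1 was called higher (*Me1*) with at least 10 counts in every sample and with the replicate block, and 0 to 1 lower with a replicate left out. Leaving out a replicate moved *Tm7sf2* between -0.70 and 0.009 on the log2 scale. Median log2 fold changes ranged, with a replicate left out, from -0.0116 to 0.17 for the 7 genes, -0.13 to 0.06 for the other enzymes, 0.007 to 0.11 for the regulators, 0.08 to 0.16 for the lipogenic genes and -0.39 to -0.26 for the efflux genes. The causes were not tested. With an arm of 1 sample, that sample was assumed to vary like the others.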
